A study of Mus musculus with 4 samples.

Results

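The genes described here are 40 mitotic and G2/M genes, the genes whose mRNA accumulates late in the cell cycle and whose proteins condense, attach and separate the chromosomes. They were taken by symbol from the 27178 genes of the deposited table, and all 40 were found, each on 1 row. They were taken by name, with no threshold on a measured value. The libraries were made from neural crest-derived gut cells of Wnt1-tdT mice, taken at 11.5 days post coitum. In these mice a red fluorescent protein marks cells that descend from Wnt1-expressing neural crest, and the marked cells were sorted by flow cytometry from dissociated gut. There were 2 libraries from the invasive wavefront, the leading edge of the crest cells as they move down the gut, and 2 from crest-derived cells 1 to 1.5 mm behind it, called trailing here. Both groups had the same genotype and stage, and location was the only labelled difference. Whether replicates stem from different embryos is not in the labels, so the p-values reflect the spread among these libraries alone, and that spread may be technical.

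Entry into mitosis is driven by Cdk1 bound to A-type and B-type cyclins, aided by the Polo and Aurora kinases. Kinetochores then tie chromosomes to the spindle, a checkpoint holds back the anaphase-promoting complex until all are attached, and destruction of the B cyclins ends mitosis. Transcripts of these genes are low in quiescent and G1 cells, so they are widely used as markers of proliferation. The enteric crest is a population that divides as it migrates, and it makes neurons that leave the cell cycle.

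Late cell cycle genes are commonly controlled through 2 short promoter elements: the CHR (cell cycle genes homology region), bound by complexes that hold the MuvB core, and the CCAAT box, bound by NF-Y. E2F sites are the usual element of genes expressed at the G1/S transition. RefSeq promoters (build GRCm38, 250 bases before to 50 after the annotated start) were matched for 34 of the 40 genes. The first listed RefSeq start of each gene was used. The gene coordinates given below, from GENCODE, place the start elsewhere for some genes, such as Ube2c and Ccnb1, so placement depends on the annotation. Both strands were searched for the CHR as TTTGAA or TTCGAA, for CCAAT, and for an E2F motif as TTGGCGC, with TTGCCGC, then also TTCGCGC and also TTCCCGC as variants. The 150 bases before the start are shown 5′ to 3′ for 6 genes that recur in the results, with matches in capitals, because they show how the elements are placed.
Cdc20 (chr4:118437344-118437493, minus strand): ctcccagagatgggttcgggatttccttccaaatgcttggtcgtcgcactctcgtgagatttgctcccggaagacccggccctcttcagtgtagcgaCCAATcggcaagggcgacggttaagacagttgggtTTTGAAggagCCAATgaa
Ube2c (chr2:164769779-164769928, plus strand): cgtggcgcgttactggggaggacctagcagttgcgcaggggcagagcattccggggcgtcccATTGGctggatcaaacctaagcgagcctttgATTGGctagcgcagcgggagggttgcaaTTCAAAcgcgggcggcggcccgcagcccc
Cdk1 (chr10:69352913-69353062, minus strand): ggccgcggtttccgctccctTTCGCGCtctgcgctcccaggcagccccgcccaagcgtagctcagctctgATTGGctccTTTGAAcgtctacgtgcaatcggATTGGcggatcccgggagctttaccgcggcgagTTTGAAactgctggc
Top2a (chr11:99024190-99024339, minus strand): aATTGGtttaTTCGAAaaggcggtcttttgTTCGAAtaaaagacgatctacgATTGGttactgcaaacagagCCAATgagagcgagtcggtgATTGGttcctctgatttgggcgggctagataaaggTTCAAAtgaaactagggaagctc
Mki67 (chr7:135716380-135716529, minus strand): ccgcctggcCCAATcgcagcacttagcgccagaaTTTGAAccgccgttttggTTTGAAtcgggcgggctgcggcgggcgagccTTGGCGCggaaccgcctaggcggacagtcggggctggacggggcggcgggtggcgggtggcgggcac
Ccnb1 (chr13:100786487-100786636, minus strand): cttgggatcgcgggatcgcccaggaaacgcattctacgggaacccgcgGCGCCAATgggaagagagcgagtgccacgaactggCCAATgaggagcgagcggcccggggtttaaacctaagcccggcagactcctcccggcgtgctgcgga
Cdc20 and Ube2c have a CHR within 30 bases of the RefSeq start with CCAAT boxes nearby, and Cdk1 and Top2a have 2 or more of each. Mki67 has a pair of CHR matches after a CCAAT box and an E2F motif closer to the start. In Ccnb1 the first block of capitals is an E2F match on the other strand that overlaps a CCAAT box, and no CHR match lies in its window.

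A CHR match was present in 27 of the 34 promoters (79.4%), against 19.4% of all 27025 promoters of the same length and 14.1% of the 4522 promoters of genes tested by counts. A CCAAT box was present in 27 (79.4%), against 37.9% of all promoters, and 19 (55.9%) held 2 or more, against 12.2%. Both elements together were found in 25 promoters (73.5%), against 7.70% of all. An E2F motif was found in 8 (23.5%), against 9.69% of all promoters and 20.6% of those of genes tested by counts. In a list of DNA replication and G1/S genes an E2F motif was in 28 of 48 promoters (58.3%) and a CHR in 8 (16.7%). For other mitosis genes a CHR was in 50 of 104 promoters (48.1%), and both elements together were in 33 (31.7%). CCAAT boxes were also common in other cell cycle lists: 62.5% of the G1/S promoters had 1 and 37.5% had 2 or more, and for 104 promoters of other mitosis genes the shares were 56.7 and 30.8%. Mad2l1, Birc5, Nuf2 and Nusap1 had no match to any of these motifs, and Anln and Ndc80 had a CHR without a CCAAT box. These are letter matches in a window, not measured binding sites.

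**Figure D1:**
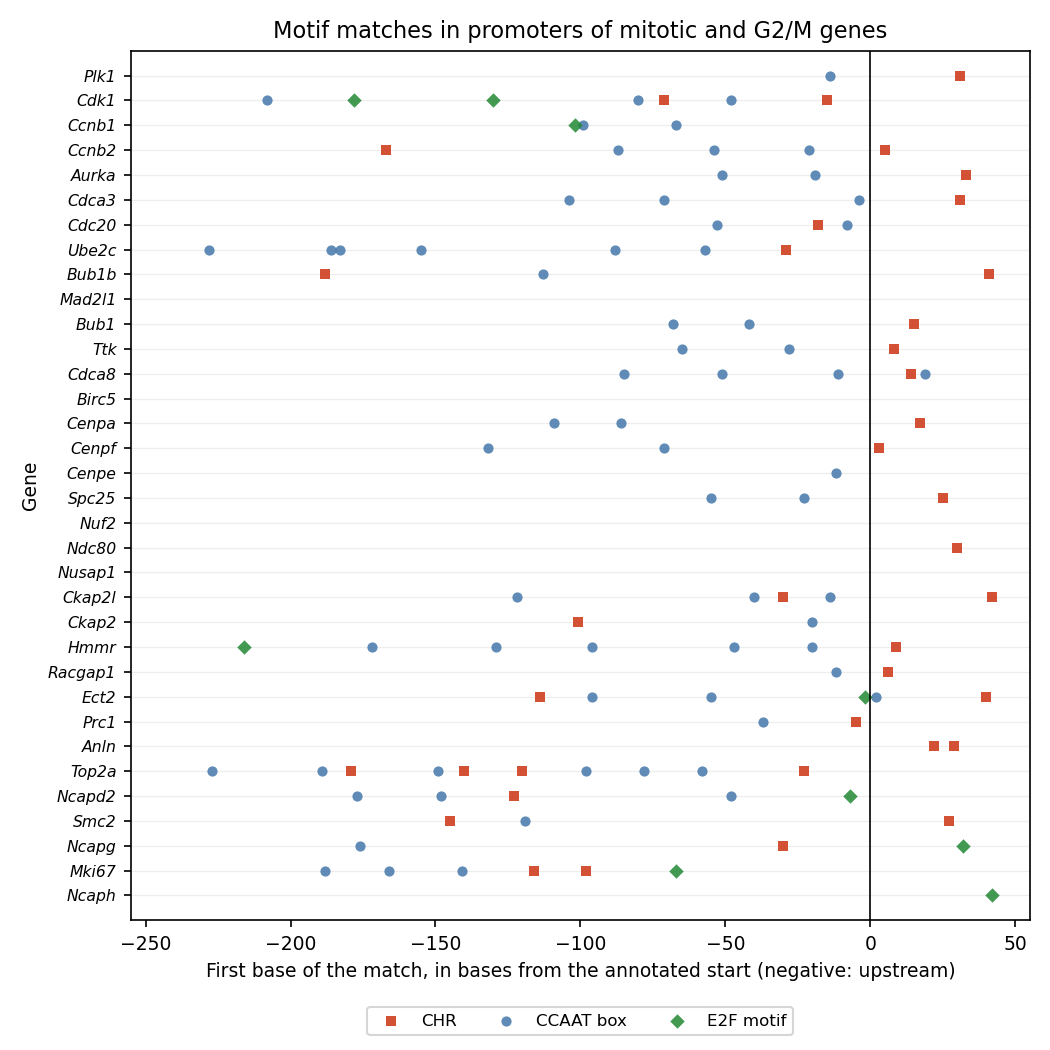
Positions of CHR (squares), CCAAT (circles) and E2F (diamonds) matches in the RefSeq promoters of 34 mitotic and G2/M genes, in bases from the annotated start (vertical line). CCAAT boxes lie mostly upstream of the start and CHR matches often lie near it, and the rows of Mad2l1, Birc5, Nuf2 and Nusap1 are empty.

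Read depth and the share of ribosomal RNA differed between the libraries. Totals were 517000 and 452142 reads for the trailing libraries and 543070 and 260217 for the wavefront ones. Ribosomal RNA took 15.6 to 26.1% of the reads of the first 3 and 55.5% of wavefront replicate 2, which left it 114972 reads outside ribosomal RNA, against 330644 to 452144 in the others. Wavefront replicate 2 also held 110 reads of 7 erythroid genes, mostly the embryonic globins Hbb-y and Hba-x, where the other libraries held 0 to 2. Of 14 gut mesenchyme markers the summed share of reads outside ribosomal RNA was 0.0254 and 0.0284% for trailing cells, against 0.0533 and 0.147% for wavefront replicates 1 and 2. Col3a1 gave most of those reads, while Foxf1 had 2 reads in all and Barx1 none. Of the 3 mesenchyme markers tested, 2 passed the count test, both higher at the wavefront. They were Des (log2 fold change 2.84, edgeR adjusted p 9.77e-06) and Col3a1 (1.59, edgeR adjusted p 0.00336). Markers of epithelium, mesothelium and leukocytes summed to at most 15 reads a library, and those of endothelium to 11 to 29. The 10 enteric crest markers, Ret and Ednrb among them, summed to 0.414 and 0.333% for trailing cells, against 0.486 and 0.272% for wavefront replicates 1 and 2. Wavefront replicate 2 was thus the lowest in crest markers, and of the 8 tested 4 had log2 fold changes above 0 and 4 below. Enteric neuron markers summed to 0.441 and 0.499% among trailing cells, against 0.159 and 0.144% at the wavefront, and 8 of the 10 tested passed the count test, all lower at the wavefront. The part of these differences in the results below was not tested.

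The mitotic and G2/M genes were read in all 4 libraries, and none of the 40 passed the test for a difference between wavefront and trailing cells. Their summed RNA made up 0.623% of reads outside ribosomal RNA in trailing replicate 1 (95% exact binomial interval 0.598 to 0.648%) and 0.646% in trailing replicate 2 (0.619 to 0.674%). The sum was 0.700% in wavefront replicate 1 (0.676 to 0.725%) and 0.741% in wavefront replicate 2 (0.692 to 0.792%). Both wavefront libraries were thus above both trailing ones. The intervals cover counting error within each library only and leave out the spread between libraries, and reads carried no molecular identifiers. As a share of all reads the sums were 0.471, 0.478, 0.591 and 0.330% in the same order, so the position of wavefront replicate 2 turned from highest to lowest with its ribosomal RNA counted. In bulk samples fewer cells of a type and less RNA per cell cannot be told apart.

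Gene by gene, edgeR's quasi-likelihood test on recovered reads called 0 of the 40 at a Benjamini-Hochberg adjusted p under 0.05, where 1.74% of 5759 tested genes were called (0.399% higher and 1.34% lower at the wavefront). Adjusted p-values of the 40 ran from 0.312 to 0.996. At an unadjusted p under 0.05 there were 2, Nuf2 and Anln, both higher at the wavefront, where 9.95% of tested genes passed and 4.05% did so with a higher value there. DESeq2 called 0 of the 40 (0.277% of 4690 genes), and so did the authors' deposited table once its p-values were adjusted (0.0891% of 14589). With limma on log2(CPM + 1) the number was 0 of 40, with 0 at an unadjusted p under 0.05, where 0% and 6.85% of 12519 genes passed. A p that misses the threshold does not show that levels were equal. For 25 genes the 95% interval of the log2 fold change lay within 1 of 0, that is, a doubling or halving in either direction was outside it. This held for 33.2% of all tested genes and for 43.8% of the 4036 others with read totals in the same range.

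The 40 log2 fold changes, wavefront over trailing, had a median of 0.13 beside 0.01 for all genes tested, and ran from -0.40 to 1.01. They lay above 0 for 29 genes and below for 11, where 50.9% of all tested genes were above 0. On library size alone, without the scaling factors that edgeR computes to balance composition, the median was -0.06 beside -0.18 for all genes, and 18 were above 0. In limma on the deposited CPM it was -0.16 beside -0.35, with 11 above 0, where 29.2% of all genes were. So the sign of the median differed between these scalings. It also changed with 1 library left out: in limma without wavefront replicate 2 the median was 0.24 beside -0.01, with 35 above 0. The gap between the median of the 40 and that of all genes was 0.12 in both count fits and 0.19 in limma. Over the alternatives it ran from 0.046 (without wavefront replicate 1) to 0.26 (DESeq2) by counts. In limma it ran from -0.0015 (without wavefront replicate 1, both medians at -0.63) to 0.28 (without trailing replicate 1). With reads thinned to the smallest library, where 34 of the 40 were tested, it was 0.068. In the count test without wavefront replicate 1 the median of the 40 was 0.02 beside -0.03, with 23 above 0. Without wavefront replicate 2 the count test gave 0.21 beside -0.01, with 30 above 0. The SD of the 40 fold changes was 0.32, and that of the 4036 other genes with totals in the same range was 0.55, but the 40 had more reads (median 163 against 108).

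Both wavefront libraries were above both trailing ones for 12 genes, where 18.6% of tested genes had that order, and below for 2, Ckap2 and Ube2c, where 20.7% had it. For the other 26 the groups overlapped. In 31 of the 40 the difference between replicates of at least 1 group was larger than the difference between the groups. The share of other genes with that property was not computed. The median difference between the wavefront replicates was 0.38 on the log2 scale and that between the trailing replicates 0.24. For the 4036 other genes with read totals in the same range these medians were 0.42 and 0.31.

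**Figure D2:**
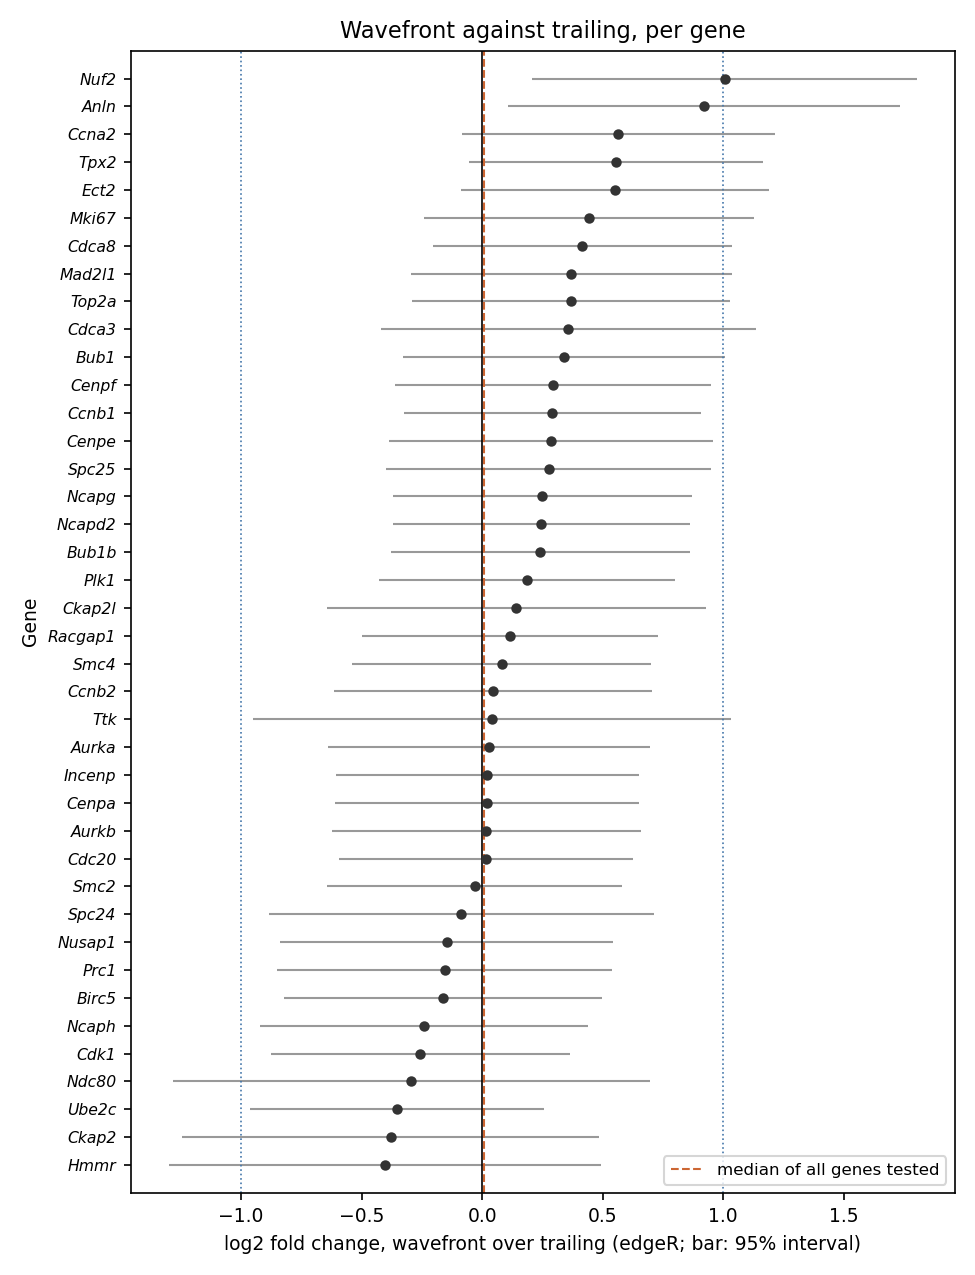
Log2 fold change of each mitotic and G2/M gene, wavefront over trailing, with its 95% interval (edgeR, 2 libraries a group), ordered by size. The dashed line is the median of all genes tested and the dotted lines mark -1 and 1; only the intervals of Nuf2 and Anln leave out 0, and neither gene passed after adjustment.

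**Figure D3:**
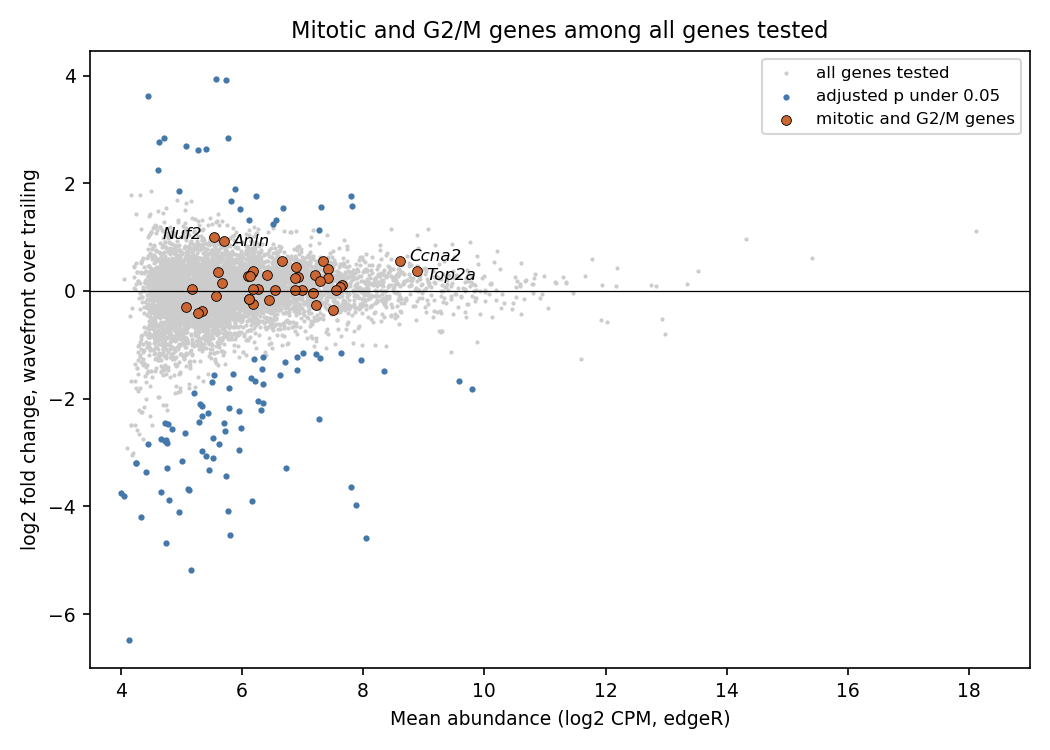
Log2 fold change against mean abundance for the 5759 tested genes (grey), the 100 genes with an adjusted p under 0.05 (blue) and the 40 mitotic and G2/M genes (orange). The orange points lie near the zero line, from -0.40 to 1.01, within the cloud of genes that did not pass.

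Cyclins and mitotic entry kinases came first in the order of events. This group of 7 (Ccna2, Ccnb1, Ccnb2, Cdk1, Plk1, Aurka and Cdca3) had a median log2 fold change of 0.19, and 6 were above 0. Ccna2 (chromosome 3, 36564865 to 36572150), cyclin A2, which acts in S phase and at mitotic entry, was read 190 and 145 times in the trailing libraries, against 321 and 74 times at the wavefront. Scaled CPM, that is CPM computed on TMM-scaled library sizes, were 341 and 288 against 511 and 412. Both wavefront values were above both trailing ones. The log2 fold change was 0.56 (SE 0.32), with an edgeR adjusted p of 0.599. Ccna2 shares 510 exon bases with Exosc9 on the other strand, which had 169 reads, and the library kit does not keep the strand, so reads there cannot be told apart.

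Ccnb1 (chromosome 13, 100778650 to 100786570), cyclin B1, the partner of Cdk1 at mitotic entry, was at 144 and 115 scaled CPM in the trailing libraries, against 146 and 178 at the wavefront. The lower wavefront value was next to the higher trailing one. Its log2 fold change was 0.29 (SE 0.31, edgeR adjusted p 0.854). Pseudogene copies match Ccnb1 closely, the nearest, Ccnb1-ps, at 99.2% over 1287 bases, and it had 1 read. Cdk1 itself (chromosome 10, 69335146 to 69352938), the kinase, was at 147 and 169 against 151 and 100 scaled CPM. Wavefront replicate 2, with 18 reads, was the lowest of the 4, and the other 3 lay close together. Its log2 fold change was -0.26 (SE 0.31, edgeR adjusted p 0.870), opposite in sign to that of Ccna2 and Ccnb1. The kinases Plk1 and Aurka, cyclin B2 (Ccnb2) and Cdca3, a trigger of Wee1 destruction, had log2 fold changes of 0.03 to 0.36, each with overlapping groups.

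The spindle checkpoint kinases and their partners (Bub1, Bub1b, Ttk, Mad2l1) hold the anaphase-promoting complex inactive, Cdc20 activates it, and Ube2c is the ubiquitin-conjugating enzyme that serves it. Of these 6, 5 had a log2 fold change above 0 and the median was 0.14. Cdc20 (chromosome 4, 118432901 to 118437352) was at 176 and 191 scaled CPM in the trailing libraries, against 175 and 201 at the wavefront. The groups overlapped fully and the log2 fold change was 0.02 (SE 0.30, edgeR adjusted p 0.996), with a 95% interval from -0.59 to 0.63. Ube2c (chromosome 2, 164769898 to 164778822) was at 203 and 191 against 167 and 134. Both wavefront libraries were below both trailing ones, by less than the test could tell from replicate spread (-0.35, SE 0.30, edgeR adjusted p 0.804). Ttk, with 57 reads in all, was lowest in wavefront replicate 1 (20.7 scaled CPM) and highest in wavefront replicate 2 (61.3), with both trailing values between. Bub1 was above in both wavefront libraries (0.34), and Bub1b and Mad2l1 overlapped (0.24 and 0.37).

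The chromosomal passenger complex joins Aurora B (Aurkb) to Incenp, survivin (Birc5) and borealin (Cdca8) and corrects wrong attachments. Cdca8 (chromosome 4, 124918465 to 124939311), the most read of the 4, was at 153 and 137 scaled CPM in the trailing libraries, against 162 and 240 at the wavefront. Wavefront replicate 1 lay just above the trailing libraries and replicate 2 well above them, and the log2 fold change was 0.42 (SE 0.31, edgeR adjusted p 0.737). Aurkb and Incenp were both at 0.02 and Birc5 at -0.16, each with overlapping groups, so members of 1 complex were spread on either side of 0. Birc5 had 9 reads in wavefront replicate 2, which was its lowest library at 50.1 scaled CPM, against 77.2 to 99.4 in the others.

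At the centromere and kinetochore (Cenpa, Cenpe, Cenpf, Ndc80, Nuf2, Spc24, Spc25) the median log2 fold change was 0.28 and 5 of 7 were above 0. Nuf2 (chromosome 1, 169497934 to 169531464) is a subunit of the Ndc80 complex, the microtubule-binding part of the kinetochore. It was read 16 and 15 times in the trailing libraries, against 38 and 10 times at the wavefront, or 28.7 and 29.8 against 60.5 and 55.7 scaled CPM. Each pair of replicates lay close together and the groups were apart, with the largest fold change of the 40: 1.01 on the log2 scale (SE 0.40), an edgeR adjusted p of 0.312 and a 95% interval from 0.21 to 1.81. With any 1 library left out it ran from 0.92 to 1.09. In limma Nuf2 was at 0.68 (SE 0.46, limma adjusted p 0.786), and at 0.25 to 1.10 with a library left out. The authors' deposited table gives a log2 fold change of 0.62 (SE 0.45) for Nuf2.

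The other 3 subunits of the same complex had lower log2 fold changes, but the difference between subunits was not tested. Their 95% intervals were -1.28 to 0.69 for Ndc80, -0.89 to 0.71 for Spc24 and -0.40 to 0.95 for Spc25. Each overlapped that of Nuf2. Ndc80 (chromosome 17, 71496100 to 71526857), the subunit that Nuf2 pairs with, had 19 and 15 reads in the trailing libraries, against 12 and 8 at the wavefront, or 34.1 and 29.8 against 19.1 and 44.6 scaled CPM. The wavefront libraries were its lowest and its highest, and the log2 fold change was -0.30 (SE 0.49, edgeR adjusted p 0.911). Spc24 was at -0.09 with overlapping groups, and Spc25 at 0.28 with both wavefront values above both trailing ones. Cenpa (chromosome 5, 30666777 to 30674830), the histone H3 variant that marks centromeres, was the most read gene of this group. It was at 91.5 and 135 scaled CPM against 126 and 94.7, so each group held a high and a low library, and the log2 fold change was 0.02 (SE 0.31, edgeR adjusted p 0.995). Cenpe, a kinesin motor, and Cenpf, a kinetochore protein, were both at 0.29.

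Spindle assembly factors were the group with the lowest median, -0.15, with 2 of 5 above 0. Tpx2 (chromosome 2, 152847964 to 152895321), which activates Aurora A on spindle microtubules, was at 113 and 147 scaled CPM in the trailing libraries, against 196 and 184 at the wavefront. Its groups did not overlap, with a log2 fold change of 0.56 (SE 0.30, edgeR adjusted p 0.561). Hmmr (chromosome 11, 40701395 to 40733422), which helps focus spindle poles, had the lowest value of the 40. It was at 39.5 and 37.8 against 25.5 and 39.0 scaled CPM, where only wavefront replicate 1 was low (-0.40, SE 0.45, edgeR adjusted p 0.861). Ckap2 (chromosome 8, 22168160 to 22185819), a microtubule-associated protein, was at 39.5 and 41.7 against 30.2 and 33.4. Both wavefront values were below both trailing ones, on 6 reads in wavefront replicate 2 (-0.38, SE 0.43, edgeR adjusted p 0.864). The related Ckap2l and the spindle protein Nusap1 were at 0.14 and -0.15 with overlapping groups.

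The midzone and cytokinesis genes were Prc1, which bundles midzone microtubules, Racgap1 and Ect2, which localise and activate RhoA, and Anln, anillin, a scaffold of the contractile ring. Anln (chromosome 9, 22332012 to 22389188) was read 22 and 14 times in the trailing libraries, against 29 and 19 times at the wavefront, or 39.5 and 27.8 against 46.1 and 106 scaled CPM. Wavefront replicate 1 was close to the trailing libraries and replicate 2 was more than double it. The log2 fold change was 0.92 (SE 0.40) with an edgeR adjusted p of 0.411. Without wavefront replicate 1 it was 1.63 with an edgeR adjusted p of 0.0401, the only setting in which any of the 40 passed, and without wavefront replicate 2 it was 0.50. The erythroid and mesenchymal shares of reads were also highest in wavefront replicate 2. Racgap1 (chromosome 15, 99620496 to 99651656), the most read of the 4, was at 206 and 171 against 231 and 167 scaled CPM. The groups overlapped (0.12, SE 0.31, edgeR adjusted p 0.950). Ect2 was above in both wavefront libraries (0.55) and Prc1 overlapped (-0.16).

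Condensin subunits (Smc2, Smc4, Ncapg, Ncapd2, Ncaph), topoisomerase II alpha and Ki-67 shape the mitotic chromosomes, and here 5 of 7 were above 0 with a median of 0.25. Top2a (chromosome 11, 98992943 to 99024189), which untangles sister DNA, was the most read of the 40 with 243, 194, 337 and 94 reads in trailing replicates 1 and 2 and wavefront replicates 1 and 2. That was 436 and 386 against 536 and 524 scaled CPM. The groups were apart, with a log2 fold change of 0.37 (SE 0.33, edgeR adjusted p 0.815). Mki67 (chromosome 7, 135689784 to 135716361), which encodes Ki-67, the coat of mitotic chromosomes and the common stain for cycling cells, was at 71.8 and 125 against 93.9 and 201 scaled CPM. Replicate 2 was the higher library in both groups and the groups overlapped (0.44, SE 0.34, edgeR adjusted p 0.7502). Without wavefront replicate 2 the log2 fold change of Mki67 was -0.0043. Among the condensin subunits, which act as 1 complex, log2 fold changes ran from -0.24 (Ncaph) to 0.25 (Ncapg and Ncapd2), and only Ncapg had groups that did not overlap.

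**Figure D4:**
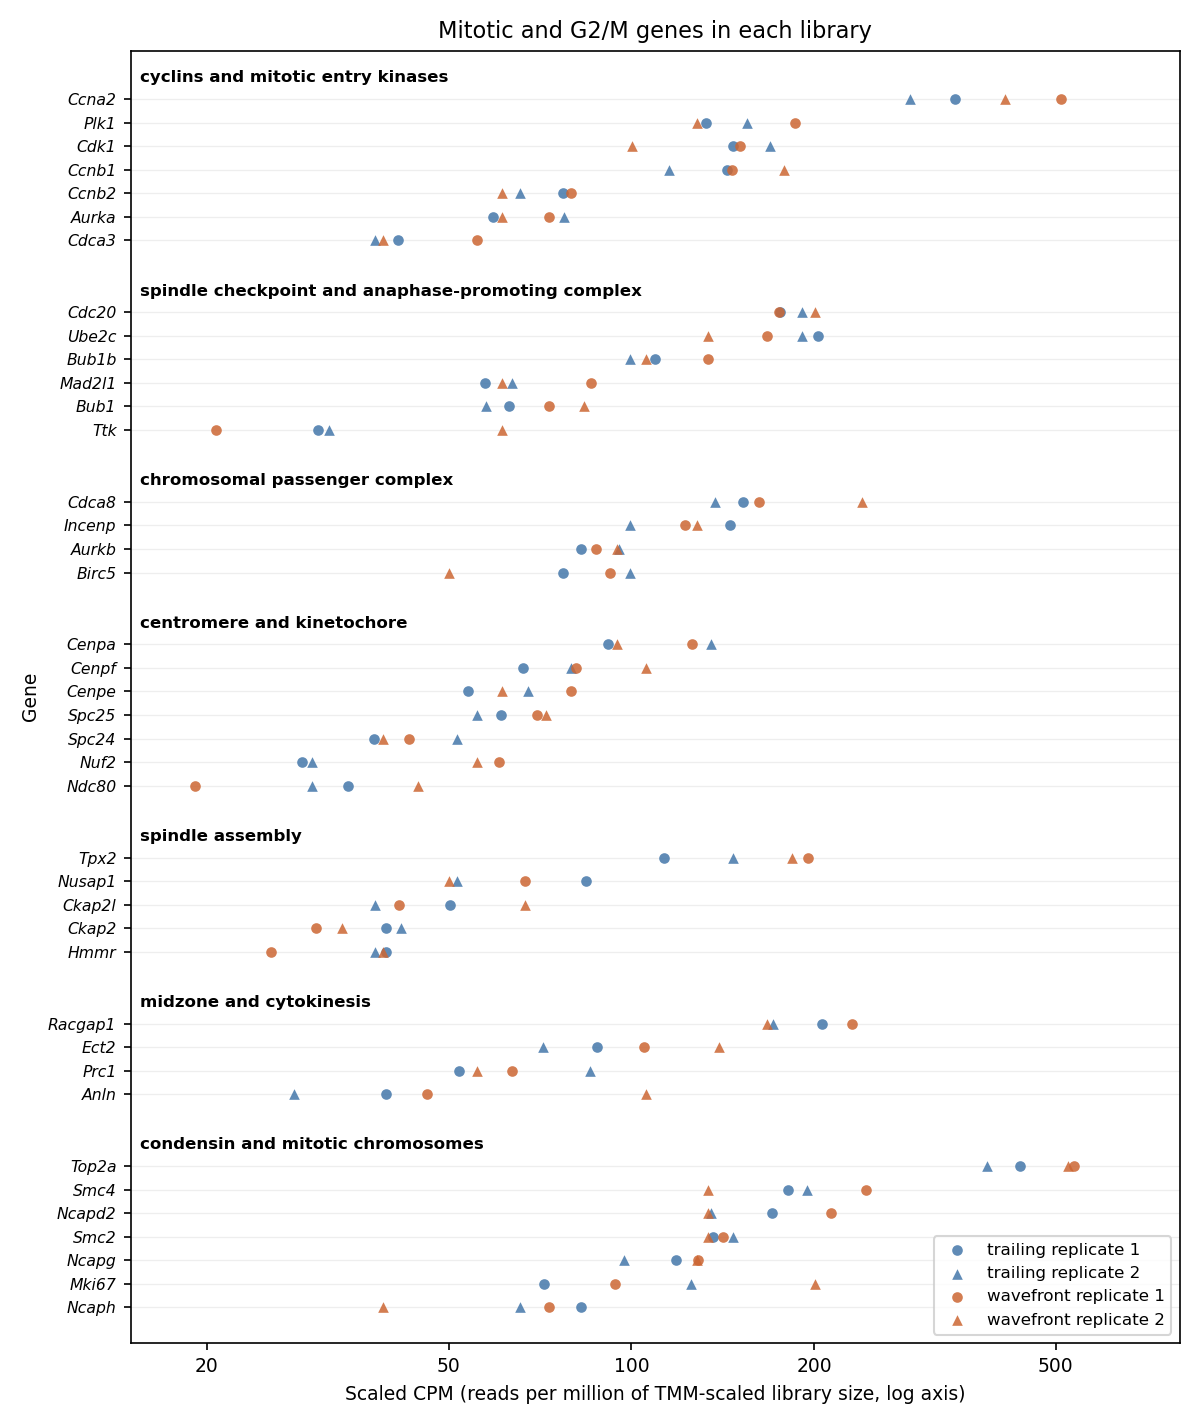
Scaled CPM (log axis) of the 40 mitotic and G2/M genes in each library, by role; blue marks trailing and orange wavefront libraries, circles replicate 1 and triangles replicate 2. The colours are mixed in most rows; Nuf2, Tpx2 and Top2a are among the rows with both orange marks to the right, and Ube2c and Ckap2 have both to the left.

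Per kilobase of merged exons (GENCODE M21, same build), Cdc20 and Ccna2 were the most abundant of the 40, with means of 99.3 and 95.03 scaled CPM per kilobase over the 4 libraries. Their ranges over libraries, 93.7 to 107 and 70.6 to 125, overlapped. Plk1 (68.4, range 58.3 to 84.7) and Ube2c (66.8, range 51.4 to 78.0) came next and overlapped each other, followed by Top2a (52.2) and Ccnb2 (46.3). At the low end were Ndc80 (4.91), Cenpf (5.39), Anln (6.05), Hmmr (6.52) and Nuf2 (6.89), whose ranges also overlapped. The 2 genes with the largest fold changes, Nuf2 and Anln, were thus among the 5 with the lowest level per kilobase. Between Nuf2 and Ndc80, which act as a pair, the per-kilobase values were 9.54 and 8.79 against 2.94 and 6.86 in the wavefront libraries, and 4.53 and 4.70 against 5.25 and 4.59 in the trailing ones. The 40 genes lie on 15 chromosomes, 9 of them on chromosome 2. Of the 40, 11 share exon bases with another annotated gene and 5 have a pseudogene copy of at least 95% identity over 200 bases.

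Other genes of mitosis were read alongside. Of 127 in the table (kinetochore, cohesin, separation, centrosome and G2/M control genes outside the 40), 93 were tested. In the count test 0 passed, and 6 had an unadjusted p under 0.05, where 9.95% of all tested genes did. There were 63 above 0, where 50.9% of all tested genes were, and the median log2 fold change was 0.20. In limma on the deposited CPM 54 of 126 were above 0, where 29.2% of all genes were, and the median was -0.07. The 4 with the smallest p were Sgo1, the centromere cohesion protector shugoshin, at 0.97 (edgeR adjusted p 0.370), Ncapg2, a condensin II subunit, at 0.85 (0.418), Ccnf, cyclin F, at 0.73 (0.425), and Cenpo, a kinetochore protein, at 1.19 (0.460). All 4, picked here by their p, had both wavefront libraries above both trailing ones. That order was found in 31 of the 93 and in 18.6% of all tested genes. Their summed share of reads outside ribosomal RNA was 0.837 and 0.847% for trailing cells, against 0.850 and 1.15% for wavefront replicates 1 and 2, over the 127 genes, so here replicate 2 alone was apart.

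Of 58 DNA replication and G1/S genes, 53 were tested and 0 passed. In the count test 6 had an unadjusted p under 0.05, where 9.95% of all tested genes did. There were 37 above 0, where 50.9% of all tested genes were, and the median was 0.21. In limma 25 of 58 were above 0, where 29.2% of all genes were, and the median was -0.05. The summed share was 1.10 and 0.981% in the trailing libraries, against 1.40 and 1.27% at the wavefront. Cdc6, which loads the replicative helicase, was at 37.7 and 35.8 against 74.8 and 78.0 scaled CPM. The groups were apart, with the smallest p of this list (1.04, SE 0.36, edgeR adjusted p 0.160). Rfc5, a clamp loader subunit, was at 0.95 and Cdk2, the S phase kinase, at 0.83 (edgeR adjusted p 0.265 for each). Rrm2, the ribonucleotide reductase subunit, was at 0.91 (0.328), and without wavefront replicate 2 it rose by the same test (1.31, edgeR adjusted p 0.0141). With TMM scaling, S phase and mitotic genes thus both had log2 fold changes above 0 more often than below.

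Of 10 genes linked to cell cycle exit, 3 had enough reads to test. Cdkn1c, the Cdk inhibitor p57, fell at the wavefront. It had 64 and 102 reads in the trailing libraries, against 44 and 11 at the wavefront, or 115 and 203 against 70.0 and 61.3 scaled CPM. Both wavefront values were below both trailing ones, with a log2 fold change of -1.23 (SE 0.34, edgeR adjusted p 0.0386). Only 1 of 13 alternatives kept that call (library sizes without ribosomal RNA rows), with adjusted p from 0.0494 to 1.00, while the sign was the same in all 13. The call was lost with any 1 of the 4 libraries left out (edgeR adjusted p 0.0505 to 1.00). Btg2, an antiproliferative gene, was at -1.20 (SE 0.56, edgeR adjusted p 0.460), with 5 reads in wavefront replicate 1 and 7 in replicate 2. Btg1 was at -0.15. The neuron markers were lower at the wavefront as given above. Whether cells that express them had left the cycle was not measured, and their part in the values of Cdkn1c was not tested.

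**Figure D5:**
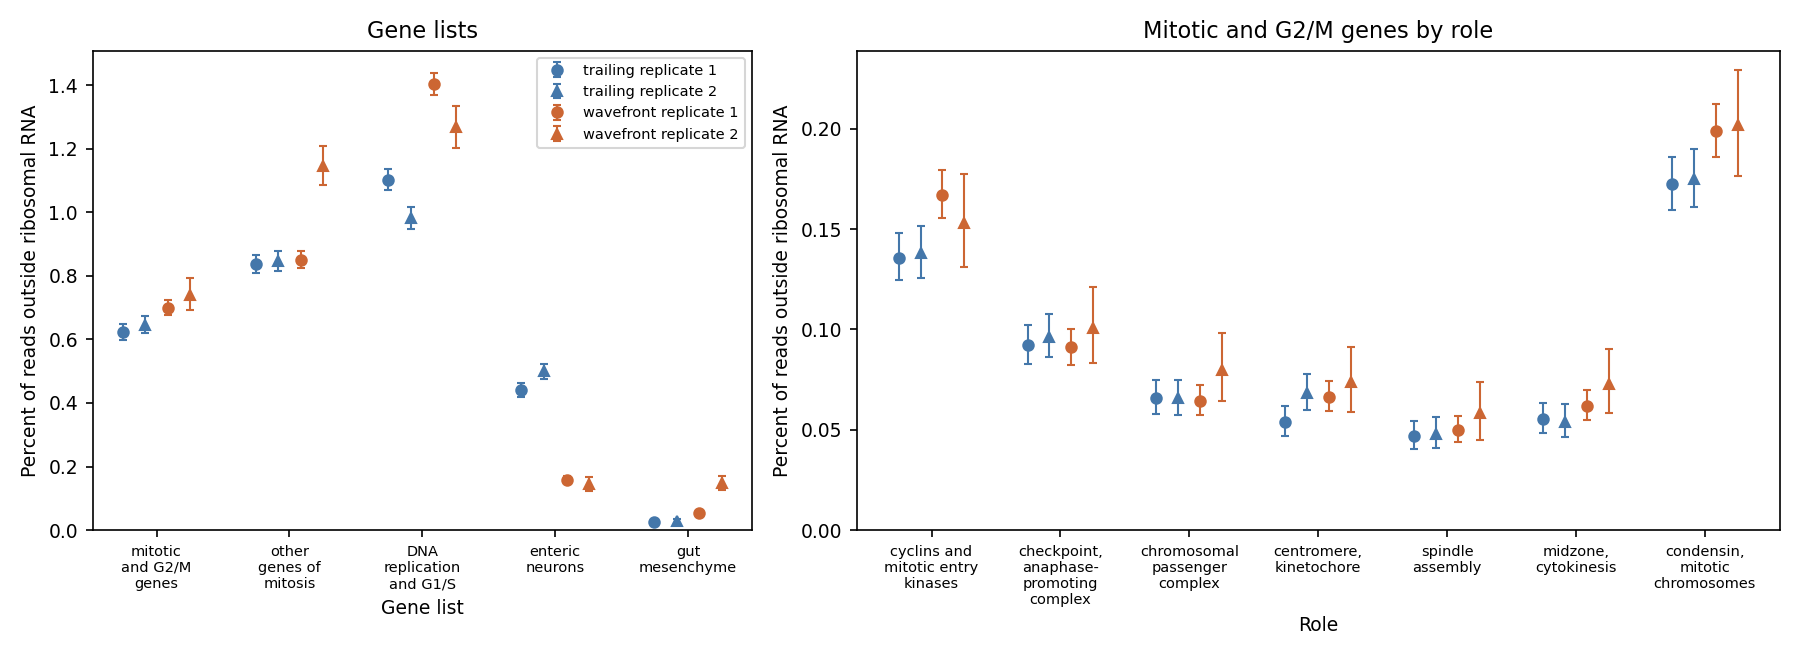
Share of reads outside ribosomal RNA taken by each gene list (left) and by each role of the mitotic and G2/M genes (right), per library, with 95% exact binomial intervals that cover counting error only. The mitotic and G2/M sum runs from 0.623 to 0.741%, while the neuron sum is 0.441 and 0.499% in the trailing libraries, against 0.159 and 0.144% at the wavefront.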

How the data were processed

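RNA of Wnt1-tdT sorted cells was made into libraries with the Nextera XT kit, per the labels' protocols. The submitters' processing notes name STAR 2.5.2b, bcl2fastq 2.17, FastQC 0.11.9, DESeq2 and featureCounts, with GRCm38 (mm10) as the build. For the annotation release and counting settings: not given in the sources used here. Per library the authors deposited 1 CPM column, per the file headers, in 27606 rows. The deposited BaseMean is a signal, the mean of normalised reads. The deposited fold change and its error are on the log2 scale, the deposited Wald statistic is a score, and the deposited p-value is not adjusted.

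CPM values were whole multiples of 1 read (1.84 to 3.84 CPM) in 100% of cases within 0.01 reads, so whole reads were recovered. The 428 rows with a repeated identifier were left out, which gave 27178 genes, 14589 with a read. The tests planned were limma 3.58.1 on log2(CPM + 1), keeping genes whose mean CPM exceeded 1, and, on recovered reads, edgeR 4.0.16 (quasi-likelihood, TMM factors, filterByExpr with 10 reads), which called 100 of 5759 genes. Both used location as the only term and Benjamini-Hochberg adjustment over all genes tested at 0.05. DESeq2 1.42.0 under R 4.3.3 was an alternative. The scripts were tested on simulated data.

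The genes and lists were chosen with earlier results of these data known. Values were printed for the member with the most reads in each of 7 roles, the 4 largest and 4 smallest log2 fold changes, Mki67, Top2a, Ccnb1 and Cdk1, and for at most 4 genes of each other list besides those that passed. Replicate numbers were not treated as pairs.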

Additional observations from a re-analysis of the deposited data

How the results depend on the processing

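In the count test 0 of the 40 mitotic and G2/M genes passed in 12 of 13 alternatives, and 1 (Anln) without wavefront replicate 1, so leaving out a library gave 0 to 1. In limma 0 passed in all 11. Some fits called few genes of any kind: DESeq2 0.277% of 4690, the authors' deposited p-values 0.0891% of 14589, and the main limma fit 0 of 12519. A count of 0 for the 40 in those fits therefore says little about the 40. The median log2 fold change of the 40 was -0.061 on library size alone and 0.020 to 0.21 with a library left out. In limma it was -0.63 to 0.24 with a library left out. The count of G1/S genes called was 0 to 1 with a library left out. For cell cycle exit the count was 0 with DESeq2's size factors, library size alone, no filter, a filter at 30 reads, DESeq2, thinned reads, the replicate block and the authors' deposited table's p-values, and 0 to 1 with a library left out (Btg2, not Cdkn1c, without wavefront replicate 2). Shares of all reads, 0.471, 0.478, 0.591 and 0.330%, became 0.623, 0.646, 0.700 and 0.741% outside ribosomal RNA and 0.424, 0.434, 0.528 and 0.293% without Top2a.

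Of 360 alternative values of the 16 named genes, 33 changed sign, mostly of values near 0. In the count test Cdc20 was at -0.23, Cenpa at -0.20 and Racgap1 at -0.089 on library size alone. Without ribosomal RNA rows Cdc20 was at -0.0080 and Cenpa at -0.019. With a filter at 30 reads they were at -0.022 and -0.032. With thinned reads Cdc20 was at -0.10, Cenpa at -0.44 and Racgap1 at -0.024. With a library left out the ranges were -0.012 to 0.13 for Cdc20, -0.25 to 0.31 for Cenpa, -0.18 to 0.34 for Racgap1, -0.55 to 0.012 for Hmmr, -0.69 to 0.47 for Ndc80 and -0.0043 to 1.03 for Mki67. In limma Cdc20 and Racgap1 were at 0.033 and 0.064 with TMM factors and at 0.025 and 0.056 outside ribosomal RNA. With a library left out of limma the ranges were -0.18 to 0.66 for Mki67, -0.19 to 0.26 for Ccnb1, -0.15 to 0.68 for Tpx2, -0.27 to 0.78 for Ccna2, -0.31 to 0.47 for Top2a, -1.31 to 0.019 for Cdk1, -0.53 to 0.014 for Cdc20, -0.89 to 0.25 for Cenpa and -0.83 to 0.37 for Racgap1. The cause of these changes was not tested.

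The labels do not say what a replicate number marks, and the deviations of same-numbered samples had a correlation of 0.059 over 5759 genes (2 pairs), which does not show a shared origin or its absence. With the replicate block 0 of the 40 passed in either test, and the median of the 40 was 0.15 by counts and -0.16 by limma. With 2 libraries per group, 1 of them with 114972 reads outside ribosomal RNA, and 54 to 868 reads a gene over all libraries, the SE of the log2 fold change was 0.30 to 0.49 for the 40. Where a library is left out, the lone sample is assumed to vary like the other group.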

Other observations

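Among the other genes of mitosis, the values differed by role. Of 29 tested spindle and centrosome genes 25 had a log2 fold change above 0, with a median of 0.37, and 0 passed the count test. Of all tested genes 50.9% were above 0. Of 22 tested checkpoint and kinetochore genes outside the 40, 11 were above 0 and 11 below, with a median of 0.08. Of 15 tested genes of the anaphase-promoting complex and sister separation, 8 were above 0 and the median was 0.02. Of 13 cohesin and condensin genes, 9 were above 0 with a median of 0.16. In limma on the deposited CPM the median of all genes was -0.35, and 29.2% were above 0. There the medians were 0.09 for 38 spindle and centrosome genes (21 above 0) and -0.20 for 34 checkpoint and kinetochore genes. They were -0.26 for 20 genes of the anaphase-promoting complex and separation and -0.02 for 13 of cohesin and condensin. The signs of the last 3 differed between the tests, but all 4 medians lay above that of all genes in limma. The difference between these roles was not tested.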
